A study of Rattus norvegicus with 6 samples.

Results

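Claudins are the membrane proteins that form the strands of tight junctions, and each segment of the nephron makes its own mixture of them. Some claudins seal the gap between neighbouring epithelial cells, whereas others form pores in that gap that let sodium, chloride, calcium, magnesium or water pass. The mixture therefore sets which ions a segment takes back from the urine between its cells. The genes described here are 10 claudins of kidney epithelium, Cldn1, Cldn2, Cldn3, Cldn4, Cldn8, Cldn10, Cldn16, Cldn19, Cldn22 and Cldn24. They were found as the probes whose RefSeq accession maps to these symbols, 20 probes of 61537 non-control probes on the array. All 10 genes were among the 29938 genes tested, and all 20 probes were well above background on all 6 arrays.

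RNA came from the renal cortex, the outer kidney layer, of male Sprague-Dawley (Crl:CD(SD)) rats bought at 5 weeks of age. The 3 treated animals were given phenylbutazone, an NSAID used mainly in veterinary medicine that blocks cyclooxygenases, at 200 mg/kg/day for 4 weeks, and the 3 vehicle animals received corn oil for 4 weeks. Each animal had its own one-colour Agilent array. Levels are the log2 of the processed intensity relative to the array's 75th percentile, so that 0 is the 75th percentile, and they are compared between animals for 1 probe only. Array totals were alike, with a 75th percentile of 891.2 to 974.2 intensity units on phenylbutazone arrays and 921.2 to 1002.6 on vehicle arrays. The 3 phenylbutazone arrays and vehicle array 3 were on slide 2, and vehicle arrays 1 and 2 were on slide 1, scanned on another day. Differences are therefore given against all 3 vehicle animals and, as the value within slide 2, against vehicle 3 alone.

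The claudins were chosen by their role in the nephron and by their differences between phenylbutazone and vehicle in these same arrays, so those differences are a description and carry no p-value. By limma 0 of 29938 genes (0%) passed a Benjamini-Hochberg adjusted p of 0.05, and 3657 (12.2%) had an unadjusted p below it. Cldn22 and Cldn24, which lie next to each other on chromosome 16, were 3.17-fold and 2.78-fold lower in phenylbutazone rats. Of the other claudins, 7 had a mean above vehicle, by 0.04 to 0.69 log2 units, and Cldn10 was 0.20 log2 units below vehicle. In 5 of the 10 genes the groups did not overlap, 3 higher and 2 lower in phenylbutazone. Over all genes tested that share was 21.5%, with 12.1% higher and 9.39% lower, and nothing is read from the comparison because the choice used it. The median difference of the 10 genes was 0.24, against 0.015 over all genes. In whole-cortex RNA a smaller number of cells of a type and less RNA per cell cannot be told apart.

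**Figure D1:**
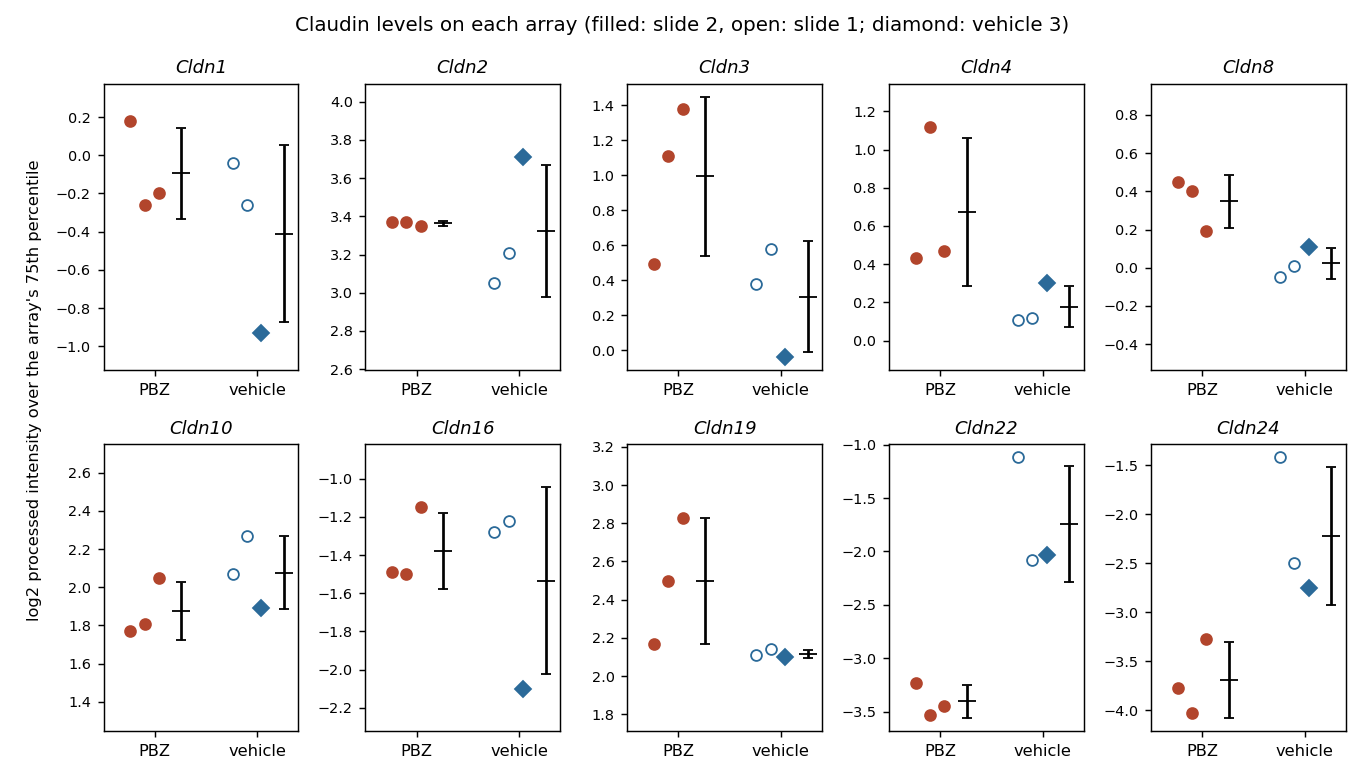
Level of each of the 10 claudin genes on every array (y axis: log2 processed intensity over the array's 75th percentile; PBZ, phenylbutazone). Filled points are slide 2, open points slide 1, the diamond is vehicle 3, and the bars beside the points are mean ± SD (n = 3 per group). Cldn22 and Cldn24 sit lower on all 3 phenylbutazone arrays than on any vehicle array, and Cldn4, Cldn8 and Cldn19 sit higher.

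Cldn22 and Cldn24 are less studied claudins, and no nephron role is given for them here. The level of Cldn22 was -3.23, -3.53 and -3.45 in phenylbutazone rats 1, 2 and 3, against -1.12, -2.08 and -2.03 in vehicle rats 1, 2 and 3. The groups did not overlap, and 1.16 log2 units separated the highest treated animal from the lowest vehicle animal. Among vehicle rats the values spread over 0.96 log2 units, since vehicle 1 stood above the other 2, whereas the treated rats spread over 0.29. The difference was -1.67 ± 0.274 log2 units (SE from the limma fit, n = 3 per group). In intensity units before scaling, the probe read 94.7, 83.2 and 89.0 on the phenylbutazone arrays and 439, 238 and 226 on the vehicle arrays. The second Cldn22 probe gave -3.98, -4.05 and -4.32 in phenylbutazone rats and -2.36, -3.14 and -2.83 in vehicle rats, a difference of -1.34 ± 0.216. Both probes therefore had the same order of groups, and vehicle 1 was the highest animal on each. Against vehicle 3 alone the 2 probes differed by -1.38 and -1.29.

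Cldn24, measured by 1 probe, stood at -3.78, -4.03 and -3.27 in phenylbutazone rats, against -1.42, -2.50 and -2.75 in vehicle rats. The groups again did not overlap, with a gap of 0.53 log2 units, and vehicle 1 was again the highest animal, so that the vehicle values spread over 1.33. The difference was -1.47 ± 0.383, and -0.95 against vehicle 3 alone, 1.93-fold lower. Without vehicle replicate 1 the Cldn24 difference was -1.07. Over all genes tested 284 (0.949%) were at least 2-fold lower in phenylbutazone, with 35 genes below Cldn22 and 65 below Cldn24.

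The Cldn22 and Cldn24 genes sit on the same strand of chromosome 16 in the RefSeq annotation of GRCr8, with 0 protein-coding genes between them. Because both were lower in the same animals, the 250 bases before the annotated start of each gene are shown, read from RefSeq GRCr8 on the minus strand, chr16:51156085-51156334 for Cldn22 and chr16:51158187-51158436 for Cldn24. Neither window held any of the 5 motifs searched, so no letters are in capitals.
Cldn22: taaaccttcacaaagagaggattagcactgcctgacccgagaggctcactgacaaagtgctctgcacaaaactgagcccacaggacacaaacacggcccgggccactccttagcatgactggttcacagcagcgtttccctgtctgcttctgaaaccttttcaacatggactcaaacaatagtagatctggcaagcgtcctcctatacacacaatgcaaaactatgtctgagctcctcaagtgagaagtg
Cldn24: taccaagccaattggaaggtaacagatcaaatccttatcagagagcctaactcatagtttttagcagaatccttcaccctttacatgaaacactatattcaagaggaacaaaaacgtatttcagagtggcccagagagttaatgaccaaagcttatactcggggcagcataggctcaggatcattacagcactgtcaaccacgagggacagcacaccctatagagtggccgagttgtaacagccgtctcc

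The annotated Cldn24 gene starts at its ATG codon and its length of 663 bases is a multiple of 3, so its window ends at the start codon rather than at a mapped transcription start. The motifs searched on both strands were the TATA box TATAAA, the GC box GGGCGG, the E-box CACGTG, the nuclear receptor half-site AGGTCA and the STAT site TTCNNNGAA. Windows matched 8 of the 10 claudins. Of these Cldn1, Cldn3 and Cldn19 held GGGCGG, which is present in 30.5% of the 33469 windows of that length. The GC content was 49.2% before Cldn22 and 44.8% before Cldn24, against a median of 51.2%.

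The genes around the pair lay closer to 0. Of the 8 nearest protein-coding genes, 4 on each side, 7 were tested, and their differences lay between -0.10 and 0.39. Wwc2, the next gene beyond Cldn22, stood at -0.03 ± 0.0881, and Cdkn2aip, the next gene beyond Cldn24, at 0.16 ± 0.176. Cldn3 and Cldn4, which neighbour each other on chromosome 12, both had means above vehicle, while the 6 tested genes around them lay between -0.33 and 0.25. Cldn16 and Cldn1 form another neighbouring pair, on chromosome 11, and the 4 tested genes around them lay between -0.06 and 0.14.

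**Figure D2:**
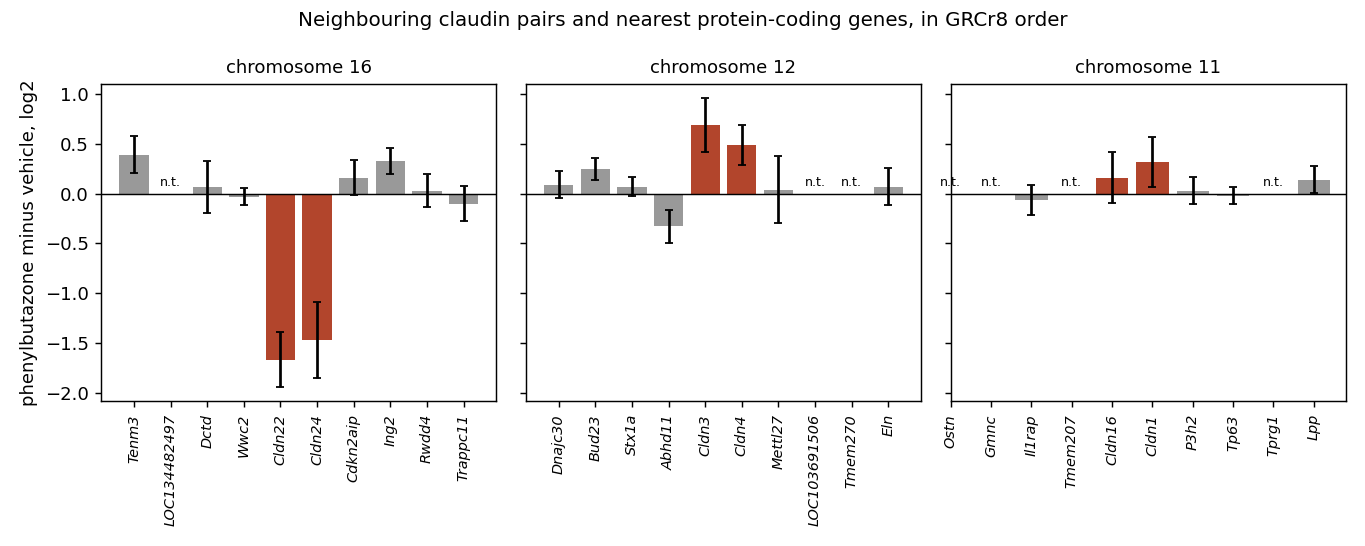
Phenylbutazone minus vehicle in log2 units (bars, with SE, n = 3 per group) for 3 neighbouring claudin pairs, in red, and the 4 nearest protein-coding genes on each side, in grey, in GRCr8 gene order; n.t. marks genes not tested. Cldn22 at -1.67 and Cldn24 at -1.47 stand apart from their neighbours, which lie between -0.10 and 0.39.

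Patterns over the 6 arrays were compared among the 12155 tested genes with a symbol, and the 17783 without one were left out. Among these named genes the pattern of Cldn22 was nearest to that of Cldn24. The root mean square difference of values centred on each gene's own mean was 0.28 log2 units. Next came Kcnj10, which encodes an inwardly rectifying potassium channel, at 0.30 and the adrenergic receptor gene Adra2c at 0.37. For Cldn24 the nearest genes were Fam83d at 0.23, Cldn22 at 0.28 and the mitotic kinase gene Nek2 at 0.32. Kcnj10, Adra2c, Fam83d and Nek2 were dim. All 4 were well above background on the 3 vehicle arrays but on fewer phenylbutazone arrays, 0 for Adra2c, 1 for Kcnj10 and 2 each for Fam83d and Nek2, whereas both claudins were so on all 6. The intensities of both claudins were also low on the phenylbutazone arrays. The likeness is a description over 6 arrays, which share the difference between the groups.

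Cldn3, Cldn4 and Cldn8 are claudins of the distal nephron and collecting duct. Cldn4 and Cldn8 act together there in the paracellular passage of chloride, and Cldn3 is mainly a sealing claudin. Their means were above vehicle at all 6 of their probes, by 0.16 to 0.69 log2 units. Cldn8 stood at 0.45, 0.40 and 0.19 in phenylbutazone rats and at -0.05, 0.01 and 0.11 in vehicle rats. The groups lay apart by 0.07, and the difference was 0.32 ± 0.113 (1.25-fold). The second Cldn8 probe also had groups that did not overlap, with a difference of 0.41 ± 0.13, and within slide 2 the 2 probes gave 0.23 and 0.29.

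Cldn4 stood at 0.43, 1.12 and 0.47 in phenylbutazone rats, against 0.11, 0.12 and 0.30 in vehicle rats. Phenylbutazone rat 2 was far above the other treated animals, and without it the difference of 0.49 ± 0.205 was 0.27. The second Cldn4 probe differed by 0.38 ± 0.221 with overlapping groups, and by 0.02 against vehicle 3 alone. Cldn3 stood at 0.49, 1.11 and 1.38 in phenylbutazone rats and at 0.38, 0.58 and -0.04 in vehicle rats. Treated rat 1 lay below vehicle 2, so the groups overlapped at a difference of 0.69 ± 0.271. The second Cldn3 probe differed by 0.16 ± 0.134, and by 0.04 within slide 2 where the first gave 1.03.

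Cldn7, a claudin of the same segments outside the chosen list, stood at 0.00, 0.29 and 0.34 in phenylbutazone rats and at -0.42, -0.11 and -0.33 in vehicle rats. Its groups did not overlap, and its difference of 0.49 ± 0.14 had a limma adjusted p of 0.303. Markers of principal cells, the main collecting duct cells, had a median difference of 0.12 in 12 tested of 14 genes, 7 higher and 5 lower. Their summed level, in multiples of the 75th percentile, ranged from 205 to 279 in phenylbutazone rats and from 212 to 247 in vehicle rats. Intercalated cell markers had a median of 0.12 (14 tested of 14, 9 higher and 5 lower). Their summed levels were 205 to 249 in phenylbutazone rats and 148 to 187 in vehicle rats. The unadjusted limma p was under 0.05 in 6 of these 14 genes, against 12.2% of all genes. It was so in 0 of the 12 principal cell markers. The part of these cell types in the distal claudin values was not tested.

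Cldn16 and Cldn19 together form the channel through which the thick ascending limb takes back calcium and magnesium, and loss of either causes hereditary magnesium wasting in humans. Cldn19 stood at 2.17, 2.50 and 2.83 in phenylbutazone rats, against 2.11, 2.14 and 2.10 in vehicle rats. The groups lay apart by 0.03, with the vehicle animals within 0.04 of each other and the treated animals spread over 0.67. The difference was 0.38 ± 0.176 (1.30-fold), 0.40 against vehicle 3 alone and 0.22 without phenylbutazone rat 3, the highest. The other 2 Cldn19 probes differed by 0.33 ± 0.221 and 0.31 ± 0.212 with overlapping groups. On both of them vehicle 3 stood above vehicle 1 and 2, and within slide 2 they gave 0.01 and 0.03.

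Cldn16 stood at -1.49, -1.50 and -1.15 in phenylbutazone rats and at -1.28, -1.22 and -2.10 in vehicle rats. The groups overlapped, and the difference of 0.16 ± 0.259 was smaller than its error. Vehicle 3 was 0.84 below the mean of vehicle 1 and 2, so that against vehicle 3 alone Cldn16 was 0.72 higher in phenylbutazone and without it the difference was -0.12. The second Cldn16 probe gave 0.09 ± 0.287 and, within slide 2, 0.66. Thick limb markers as a list (9 tested of 12) had a median of 0.25, 5 higher and 4 lower, with summed levels of 583 to 697 in phenylbutazone rats and 398 to 597 in vehicle rats. Among the vehicle rats vehicle 3 was the lowest for 5 of these 9 markers and the highest for the other 4. The 1 marker whose groups did not overlap was the kininogen gene Kng2, at 2.85 ± 0.525 (limma adjusted p = 0.215). The part of these markers in the Cldn16 and Cldn19 values was not tested.

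Cldn14, which blocks the Cldn16-Cldn19 channel when the calcium-sensing receptor is active, is not among the 10. Its probe of higher signal stood at -3.94, -2.74 and -3.73 in phenylbutazone rats and at -3.89, -4.33 and -4.38 in vehicle rats, a difference of 0.73 ± 0.333 with a limma adjusted p of 0.444. A further Cldn14 probe, singled out after its values were seen, stood at -4.19, -1.39 and -2.71 in phenylbutazone rats and at -5.53, -7.40 and -5.82 in vehicle rats. All 3 phenylbutazone arrays but only 1 of the 3 vehicle arrays read it well above background, so its difference of 3.49 ± 0.804 rests partly on values near background. The receptor gene itself, Casr, differed by 0.08 ± 0.173 (limma adjusted p = 0.881).

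Cldn2 forms a pore for sodium and water in the proximal tubule and descending thin limb. It stood at 3.37, 3.37 and 3.35 in phenylbutazone rats, which were within 0.02 of each other, and at 3.05, 3.21 and 3.71 in vehicle rats. The treated animals lay inside the vehicle range, and the difference was 0.04 ± 0.18. Its sign changed with the vehicle animals used: against vehicle 3 alone Cldn2 was lower by 0.34, and without vehicle 3 it was higher by 0.24. The second Cldn2 probe showed the same order of vehicle animals, with 0.88, 0.89 and 0.70 in phenylbutazone rats and -0.06, 0.08 and 1.30 in vehicle rats. Vehicle 1 and 2 shared slide 1, so slide and animal cannot be told apart for that spread.

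Cldn10 is made in different isoforms that favour anions in the proximal tubule and sodium in the thick ascending limb, and its 1 probe is not assigned to an isoform here. It stood at 1.77, 1.81 and 2.05 in phenylbutazone rats and at 2.07, 2.27 and 1.89 in vehicle rats. The groups overlapped at a difference of -0.20 ± 0.141, which was -0.01 against vehicle 3 alone and -0.11 without vehicle 2. Proximal tubule markers (18 tested of 18) had a median of 0.07, 10 higher and 8 lower, with summed levels of 2600 to 3080 in phenylbutazone rats and 2760 to 2840 in vehicle rats.

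Cldn1 is a sealing claudin found in the kidney in the parietal epithelium of Bowman's capsule. Its probe of highest signal stood at 0.18, -0.26 and -0.20 in phenylbutazone rats and at -0.04, -0.26 and -0.93 in vehicle rats, with overlapping groups and a difference of 0.32 ± 0.254. Vehicle 3 was the lowest animal, and without it the difference was 0.06. A second probe gave 0.66 ± 0.196 with groups that did not overlap. The remaining probe gave -0.10 ± 0.148, the only case among the 10 genes of a probe opposite in sign to the probe used. The 3 Cldn1 probes thus disagree, and within slide 2 they gave 0.83, 0.80 and -0.25. Podocyte and parietal cell markers (12 tested of 12) had a median of 0.00, with summed levels of 50.3 to 54.9 in phenylbutazone rats and 46.7 to 55.8 in vehicle rats.

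**Figure D3:**
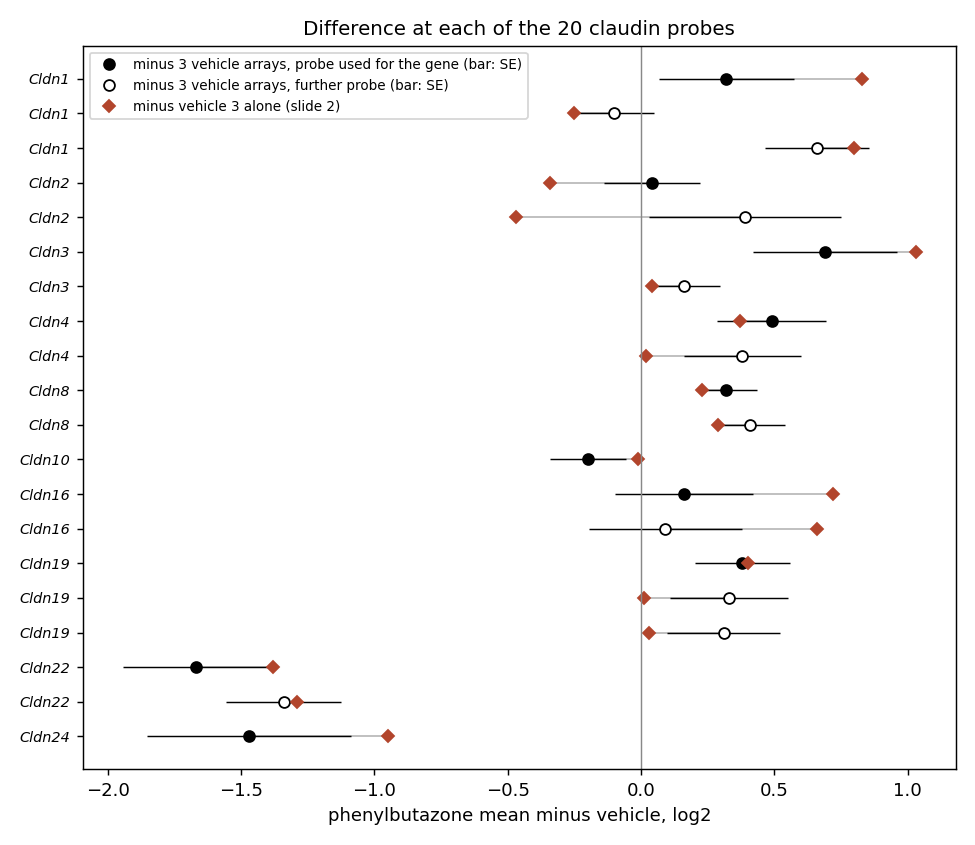
Phenylbutazone mean minus vehicle, in log2 units, at each of the 20 claudin probes. Black points are the difference from all 3 vehicle arrays (filled for the probe used for the gene, open for further probes; bars are SE, n = 3 per group), and red diamonds are the difference from vehicle 3, the vehicle array of slide 2. The 3 probes of Cldn22 and Cldn24 lie at -1.67 to -1.34 and keep their sign within slide 2, whereas both Cldn2 probes change sign.

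Of the 20 claudin probes 15 had a higher mean in phenylbutazone and 5 a lower one. Groups lay apart at 8 of them, 5 higher and 3 lower, where the shares over all genes were 12.1% and 9.39%, and nothing is read from this either. In 9 of the 10 genes the sign was the same against vehicle 3 alone, with Cldn2 the exception.

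Related genes were tested in the same limma fit, with 0 passing in each list, and their unadjusted p was under 0.05 in 1 of 11 other claudins, 3 of 33 other tight junction genes, 1 of 25 regulators and 2 of 17 calcium and magnesium genes, against 12.2% of all genes. Among other claudins and claudin-domain genes, 11 were tested of 23 listed, with 0 higher and 0 lower past the threshold, 5 of 11 above vehicle and a median of 0.00. Apart from Cldn7 and Cldn14 they were Cldn5, Cldn6, Cldn9, Cldn12, Cldn17, Cldn18, Cldn23, Cldnd1 and Cldnd2. Their differences lay between -0.34 for Cldn9 and 0.21 for Cldn17, each with overlapping groups. Against vehicle 3 alone Cldn9 changed sign, to 0.38, and Cldn17 stood at 0.37. Cldn5, the claudin of endothelium, stood at 0.06 ± 0.138. Of 39 other tight junction genes 33 were tested, with 0 higher and 0 lower past the threshold and a median of 0.05. Among these the polarity gene Pard6g stood at -0.61 ± 0.194 (limma adjusted p = 0.333) and the junction scaffold gene Afdn at 0.30 ± 0.108 (0.376). Igsf5, a junction adhesion molecule gene, stood at 0.26 ± 0.118 (0.442), and the tricellular junction gene Lsr at 0.24 ± 0.0949 (0.401). Occludin (Ocln) and the scaffold gene Tjp1 differed by -0.04 ± 0.213 and 0.15 ± 0.126.

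Of 27 listed regulators of claudins 25 were tested, with 0 past the threshold in either direction and a median of -0.07. The protease gene Tmprss4 stood at -0.23 ± 0.106 (limma adjusted p = 0.448) and Twist1, a transcription factor of epithelial-mesenchymal transition, at -0.21 ± 0.132 (0.554). Among calcium and magnesium handling genes, 17 tested of 21, 0 passed and the median was 0.00. Within slide 2 the medians were 0.22 for these genes and -0.08 for the regulators. They were 0.18 for the other claudins and 0.04 for the other tight junction genes. Trpv5, the distal calcium channel gene, stood at 1.12 ± 0.28 (limma adjusted p = 0.284).

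**Figure D4:**
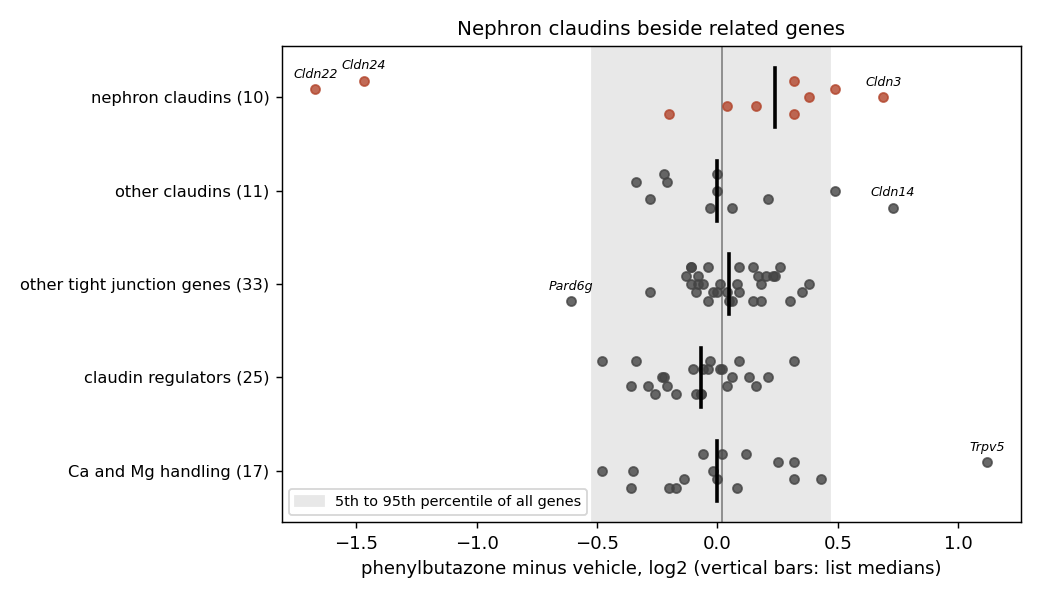
Phenylbutazone minus vehicle in log2 units for the 10 nephron claudins, in red, and 4 lists of related genes (number tested in brackets; black bars are list medians, the grey band is the 5th to 95th percentile of all genes, -0.52 to 0.47). Cldn22 and Cldn24 lie far below the band, and no other related gene shown is below -0.61.

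No marker list had a gene past the adjusted threshold. The unadjusted limma p was under 0.05 in 12.2% of all genes, 12 of 19 injury markers and 6 of 14 intercalated cell markers. The count was 3 of 18 proximal tubule, 1 of 9 thick limb, 1 of 7 distal, 0 of 12 principal cell and 1 of 12 podocyte and parietal markers. It was 2 of 13 papilla, 0 of 6 thin limb, 1 of 10 endothelial, 1 of 11 erythrocyte and 0 of 14 leukocyte markers. Tubular injury markers had a median of 0.60 in 19 tested of 21 genes, 16 higher and 3 lower. Their summed levels were 185 to 236 in phenylbutazone rats and 111 to 116 in vehicle rats. The 4 largest differences among those whose groups did not overlap were in Spp1, Krt18, Clu and Sprr1a. Spp1 stood at 2.02 ± 0.364, Krt18 at 1.41 ± 0.408, Clu at 1.39 ± 0.35 and Sprr1a at 0.99 ± 0.272. Their limma adjusted p values were 0.208, 0.307, 0.285 and 0.303. The 3 lower genes were Havcr1 at -0.19 ± 0.467, Vcam1 at -0.19 ± 0.196 and Krt8 at -0.08 ± 0.194, each with overlapping groups. Erythrocyte markers had a median of 0.46 (11 tested of 15, 11 higher), with summed levels of 635 to 1020 in phenylbutazone rats and 534 to 740 in vehicle rats. Medians were 0.10 for inner medulla and papilla markers (13 tested of 14), 0.10 for thin limb markers (6 of 8), 0.02 for distal convoluted and connecting tubule markers (7 of 10), -0.16 for endothelial markers (10 of 12) and 0.06 for leukocyte markers (14 of 17). Within slide 2 the medians were 0.88 for injury, 0.55 for erythrocyte, 0.22 for papilla and -0.07 for thin limb markers. They were 0.07 for distal, -0.35 for endothelial, -0.11 for leukocyte and 0.02 for proximal tubule markers. For thick limb, principal cell, intercalated cell, and podocyte and parietal markers they were 0.17, 0.14, 0.23 and -0.18. The part of these markers in the claudin values was not tested. The proximal tubule phosphate transporter gene Slc34a1 stood at 8.18 to 8.38 in phenylbutazone rats and 8.17 to 8.22 in vehicle rats. Not all 18 proximal tubule markers were as even between animals. Slc7a13 stood at 1.46, 4.37 and 5.41 in phenylbutazone rats and at 3.90, 4.38 and 1.99 in vehicle rats. Slc22a7 stood at -4.90, -2.69 and -0.87, against -2.75, -3.13 and -4.31 in vehicle rats. Kap stood at 6.32, 8.92 and 8.42, against 8.14, 8.24 and 8.40 in vehicle rats.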

How the data were processed

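Per the file headers and the submitters' processing notes, images were read with Agilent Feature Extraction 10.7, and the deposited processed intensity of each spot is background-subtracted and detrended but not normalized between arrays. The flag for spots well above background, an indicator rather than a measured unit, comes from the same deposited files. The deposited value table holds a ratio with medians of 0.105 to 0.107 on phenylbutazone and 0.109 to 0.110 on vehicle arrays. It was set against the processed intensity over the array's 75th percentile. The median of deposited over computed value was 0.997 on each phenylbutazone array and 0.998 to 0.999 on vehicle arrays. Scale, centring and direction are thus settled. Log2 intensities minus the array's 75th percentile were used. The 1439 control spots and 40 probes with an outlier flag were left out, no spot was saturated, and 41006 probes (66.6%) well above background on at least 3 arrays were kept. Accessions without version were matched to RefSeq genes of GRCr8, naming 45.8% of probes. The array layout names another build (rn4), so no coordinates but those of the printed windows are given. A gene was represented by its probe of highest mean level.

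The groups are biological replicates per the series design. The fit used limma 3.58.1 (lmFit, then eBayes) under R 4.3.3, with two-sided tests and Benjamini-Hochberg adjustment over all genes, after the fit had been tested on simulated data. The number of arrays, 3 per group, and the uneven split of the vehicle arrays over slides limit precision. The claudins and the gene lists were chosen with earlier results of these data known. Named genes were the 10 claudins and the other measured claudins. Of related lists they were up to 4 genes with the largest difference among those whose groups did not overlap. For the 2 claudins of largest spread they were the 3 genes of nearest pattern among tested genes with a symbol. Casr, Ocln, Tjp1, Slc34a1, Slc7a13, Slc22a7, Kap, Havcr1, Vcam1 and Krt8 were added after their values were seen. From marker lists only the 4 injury genes of largest difference and Kng2 are named by the rule of non-overlapping groups. A listed gene that the rule would name is not reported here. Probe sequences were not used here, so cross-hybridisation between related claudins was not assessed. Same-numbered replicates are different animals. Alternatives were median scaling, normexp on the median spot and background signals (offset 50), quantiles, the deposited ratios, a looser and a stricter dim-probe filter, single-probe tests, a variance trend with intensity, a slide block (fixed, then random), only the arrays of slide 2, a replicate-number block and the omission of single arrays.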

Additional observations from a re-analysis of the deposited data

How the results depend on the processing

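With limma, 0 genes were called in the fit as reported, 3657 having an unadjusted p under 0.05. The count was 0 also with median scaling, the deposited ratios, no filter, the stricter filter, every probe on its own, slide as a fixed block and slide 2 alone. It was 2 with normexp, 1 with quantile normalization, 8 with an intensity trend and 1 with slide as a random block. Leaving out 1 array gave 0 to 814 genes, the highest without vehicle replicate 3, 237 higher and 577 lower, where slide and treatment coincide. With the replicate number as a block 0 genes were called. The numbers did not pair the samples, since deviations of same-numbered animals from their group means correlated at -0.03, 0.011 and -0.074 across genes. Of the related claudin and tight junction genes 0 were called in every alternative but one, leaving out single arrays giving 0 to 1 (Marveld2 without vehicle replicate 3, 0.55 higher at a limma adjusted p of 0.0416, against 0.35 and 0.488 with all arrays). Claudins whose groups did not overlap numbered 5, and 4 or 5 under every other scaling, correction and filter. They numbered 5 to 7 with 1 array left out, 9 on slide 2 alone, where 1 vehicle array stands for its group, and 3 where every probe of the gene had to agree. No count of this kind exists for the trend and the blocks, which leave the values as they are. Cldn22 lay between -1.83 and -1.16 (the smallest size with normexp), and Cldn24 between -1.74 and -0.95, both lower in all 18 alternatives. The 18 are not separate checks of sign for any of the claudins. The looser and stricter filters, the intensity trend and the replicate block returned each claudin's reported difference unchanged. Slide as a fixed block gave the same value as slide 2 alone, and single-probe tests cannot move a gene with 1 probe. Cldn1 (0.06 to 0.83), Cldn3 (0.42 to 1.03), Cldn4 (0.27 to 0.61), Cldn8 (0.23 to 0.40) and Cldn19 (0.22 to 0.55) were higher in all 18, and Cldn10 was lower in all 18, at -0.30 to -0.01. Cldn16 changed sign in 1 of 18 (-0.12 without vehicle replicate 3) and Cldn2 in 6 of 18 (-0.34 to 0.24). The cause of these changes was not tested. The median of all genes moved by less than 0.1 under every alternative.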
